A study of Mus musculus with 75 samples.

Results

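The first step of the passage series was examined here, in which primary mouse skin fibroblasts at passage 1 (P1) were compared with the same kind of culture at passage 3 (P3). The RNA-seq libraries labelled P1 (4 replicates) and P3 (4 replicates) were taken, which are 8 of the 75 samples of the series, and every gene of their count tables entered the comparison. The cells of both groups were untreated skin fibroblasts of the C57BL/6 strain, isolated per the study's methods from 2-month-old female mice. They were grown in DMEM with 10% serum, penicillin-streptomycin and Plasmocin and split repeatedly up to P7. Passage was the labelled difference between the groups, no transgene or Cre was involved, and the additives of the medium were common to both. The 4 libraries each of P5 and P7 shared the model fit, and 4 P1 and 3 P3 samples of ATAC-seq, an assay of open chromatin, were read for the promoters of the changed genes. The labels do not say whether the replicates came from separate mice or separate dishes, so p-values measure only the spread between these libraries.

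A primary skin culture starts as a mixture. Digested skin releases dermal fibroblasts together with keratinocytes of the epidermis, macrophages, endothelial cells of the vessels, and fibres and myoblasts of the thin muscle sheet under mouse skin, and a medium made for fibroblasts on bare plastic favours the fibroblasts over the following divisions. Fibroblasts that spread on stiff plastic are also known to take on a contractile, matrix-producing state, with actin bundles, fibronectin and collagens, and serial passage of mouse cells is known to raise the inhibitors of the cell cycle encoded at Cdkn2a. In bulk RNA a lower level can come from fewer cells of a type or from less RNA per cell, and these 2 cannot be told apart.

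Each P1 library held 13430229 to 14852051 counted reads and each P3 library 13846345 to 15385843. Between 16271 and 16475 genes had at least 1 count in a P1 library, against 15703 to 15795 in a P3 library. On the first principal component of the 8 libraries, which held 72.16% of the variance, the 4 P1 and 4 P3 libraries did not overlap. On the second component, with 7.19%, replicate 4 of P1 (-15.31) and replicate 4 of P3 (-27.43) lay below the other 6 libraries, which ran from -0.09 to 12.69. Levels are given as CPM, a gene's counts brought to a common library size after scaling by TMM (trimmed mean of M-values), and the transcript Xist was read in all libraries while the Y-linked genes Ddx3y, Eif2s3y, Kdm5d and Uty had 0 counts, the mice being female per the methods. The precursor of ribosomal RNA, Rn45s, was counted at 2459, 1538, 2374 and 1740 CPM in P1 replicates 1 to 4 and at 4106, 3217, 3926 and 6224 CPM in P3. Its log2 fold change was 1.11 ± 0.29, and 0.99 without P1 replicate 2 or 0.89 without P3 replicate 4, under the 2-fold threshold.

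Of 13442 genes that passed the filter on low counts, 885 were lower and 322 were higher at P3 than at P1, called by an adjusted p under 0.05 and a change of more than 2-fold (edgeR quasi-likelihood test). These were 8.98% of the genes tested in either direction, 6.58% lower and 2.4% higher. The excess of lower genes grew with the size of the change. More than 4-fold, 433 genes were lower and 55 higher, and more than 16-fold, 79 were lower and 4 higher. With at least 10 counts required in every library, a filter that removes genes near 0 at 1 passage, 281 genes were lower and 206 higher. Without the fold threshold, by adjusted p alone, the sides were nearly equal, with 2349 genes lower (17.5%) and 2144 higher (16%), and the median log2 fold change over all genes tested was 0.005. The 4 P1 and 4 P3 values did not overlap for 1121 of the 1207 called genes and for 39.4% of all genes tested. Of the genes called lower, 250 were below the filter level of 0.696 CPM in every P3 library, and 7 had no count there, so they entered the test through the passages in which they were expressed.

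**Figure D1:**
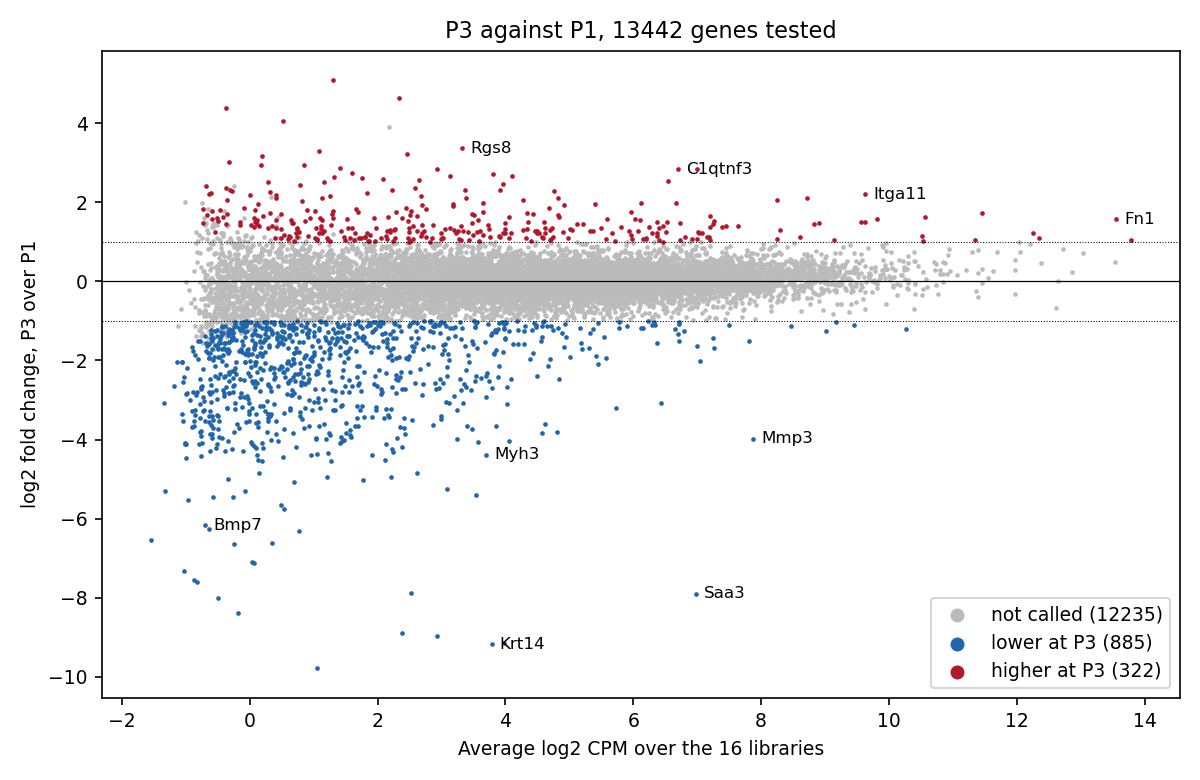
Change of each gene between P1 and P3. The x axis is the average log2 CPM over the 16 libraries of the passage series and the y axis is the log2 fold change of P3 over P1 for the 13442 genes tested, with the 2-fold limits dotted. The 885 genes called lower (blue) reach far below -4 at low and middle levels, with Krt14 and Saa3 among the lowest, whereas the 322 called higher (red) lie mostly between 1 and 3.

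The marker lists of other cell types lost many members. The 10 lists of other cell types held 198 genes, of which 143 passed the filter, and 94 of these were lower (65.7%) and 9 higher, against 6.58% and 2.4% of all genes. Of the 94, 26 were below the filter level in every P3 library. Lists of keratinocyte, skeletal muscle, macrophage and endothelial genes fell together, and those of pericytes and Schwann cells did not. The median log2 fold change over all genes tested, 0.005, is the value to set beside each list median given here. Each count of called members is to be set beside the shares over all genes, 6.58% lower and 2.4% higher.

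**Figure D2:**
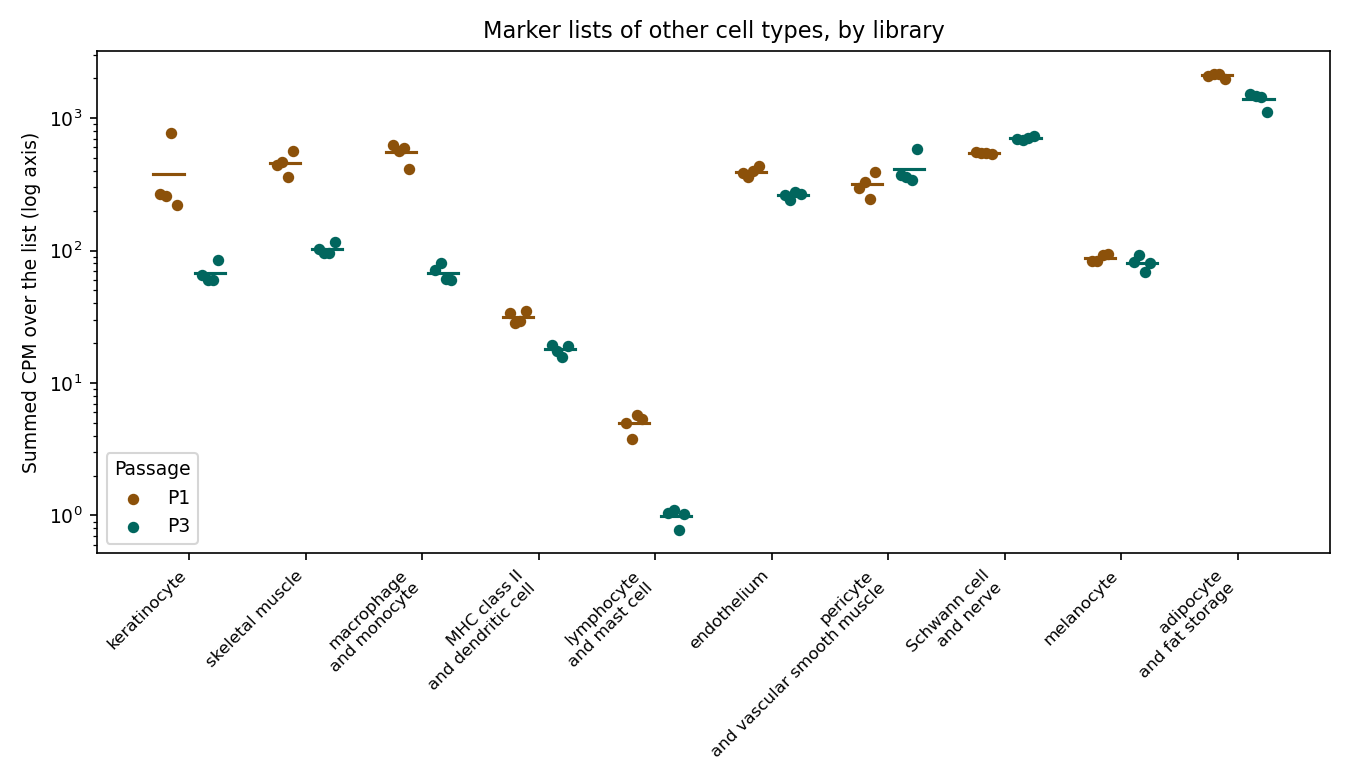
Summed level of the marker lists of other cell types. Each point is the sum of CPM over a list in 1 library (log axis), with P1 in brown, P3 in green and a line at the mean of 4 libraries. The keratinocyte, skeletal muscle and macrophage sums of P1 and P3 do not overlap, P1 replicate 3 has the highest keratinocyte sum (773 CPM), and the Schwann cell and nerve sums are higher at P3.

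Most keratinocyte transcripts fell to or near the floor. Of 28 genes on that list, 23 were tested, 19 were lower, 1 was higher and the median log2 fold change was -4.52. Of the 19, 11 were below the filter level in every P3 library. Krt14, the keratin of basal epidermal cells (chromosome 11, 100203162 to 100207510 of the GRCm38 annotation), stood at 33.4, 31.7, 134 and 17.3 CPM in P1 replicates 1 to 4 and at 0, 0.0686, 0.0645 and 0.219 CPM in P3. Its partner Krt5 stood at 42.7, 34.6, 150.3 and 19.9 CPM in P1 and at 0.0657, 0, 0.322 and 0 CPM in P3. For both keratins every P1 library was far above every P3 library, and P1 replicate 3 was several times above the other P1 libraries. The P3 libraries together held 5 counts of Krt14 and 6 of Krt5 against 3197 and 3653 at P1, so the scaled ratios of P1 over P3 were 627 (95% exact interval 269 to 1930) and 597 (274 to 1630), intervals that cover counting error only. The fitted change of Krt14 had log2 fold change -9.18, SE 0.85, adjusted p = 4.59e-07. Without P1 replicate 3 it was -8.20. Krt17 and Krt6a, keratins of hair follicles and of activated epidermis, had 2 and 3 counts at P3 and ratios of 580 (160 to 4800) and 571 (195 to 2770). Krt6a has a near-identical copy, Krt6b, and how the counting split their reads is uncertain. Dsc3, a cadherin of desmosomes, had 450 counts at P1 and 0 at P3 and was at least 147-fold lower at P3, with the floor set at 3 counts over the group.

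The other junction and basement membrane genes of epidermis followed. Dsp, the plaque protein of desmosomes, was read at 19.3, 15.1, 64.2 and 13.3 CPM in P1 and 0.920, 0.206, 0.838 and 0.951 CPM in P3, with log2 fold change -5.24, SE 0.58, adjusted p = 1.05e-06. Col17a1 and Lamb3, which anchor the epidermis to its basement membrane, had log2 fold changes of -4.85 ± 0.54 and -4.52 ± 0.62. Trp63, the transcription factor of epidermal progenitors, was low already at P1, at 1.10, 1.36, 4.44 and 2.17 CPM, and lay at 0.723, 0.137, 0.645 and 0.146 CPM at P3, with log2 fold change -2.40, SE 0.53, adjusted p = 0.00163. The members that were not lower were Krt10, Itga6 and Krt19, whose groups overlapped, and Ivl, and the summed list kept 59.8 to 85.0 CPM at P3. Ivl, a protein of the cornified envelope, was called higher at 0.460, 0.617, 0.451 and 1.17 CPM in P3 against 0.274, 0, 0.479 and 0 CPM in P1, with overlapping groups and log2 fold change 1.81, SE 0.67, adjusted p = 0.0439. This call was lost when any 1 of P1 replicates 1, 2 and 4 and P3 replicates 2 and 4 was left out, with log2 fold changes of 1.38 to 2.05.

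Skeletal muscle genes gave the largest list that fell nearly whole. Of 34 genes 28 were tested, 26 were lower and none higher, with a median log2 fold change of -2.99, and 5 of the 26 were below the filter level in every P3 library. Myh3, the embryonic myosin heavy chain of newly formed fibres (chromosome 11, 67078273 to 67102291), was at 46.5, 45.7, 37.3 and 62.8 CPM in P1 replicates 1 to 4 and at 2.89, 2.47, 1.48 and 2.34 CPM in P3, with log2 fold change -4.39, SE 0.21, adjusted p = 5.19e-11. Ttn, the giant spring protein of the sarcomere, was at 33.7, 46.8, 31.4 and 59.96 CPM and 2.43, 1.85, 2.39 and 3.73 CPM. P1 replicate 4 had the highest value of both genes and P1 replicate 3 the lowest, and no P3 library came near the P1 range. Mymk, which drives fusion of myoblasts, changed by -4.94 ± 0.37 on the log2 scale, and the myogenic factors Myog and Myod1 by -3.65 ± 0.30 and -3.54 ± 0.46. Des, the intermediate filament of muscle, went from 30.1, 32.1, 24.7 and 34.7 CPM to 4.80, 4.25, 3.74 and 5.41 CPM (log2 fold change -2.74, SE 0.19, adjusted p = 3.90e-09). The 2 tested members that were not called had overlapping groups. Acta1, the skeletal actin, was at 54.4, 57.8, 46.5 and 70.7 CPM in P1 and 43.9, 47.1, 45.8 and 49.01 CPM in P3, with log2 fold change -0.30, SE 0.23, adjusted p = 0.321. Tnnt2, the cardiac troponin T that immature skeletal muscle also makes, was at 14.4, 14.4, 10.7 and 19.1 CPM and 8.87, 5.62, 8.70 and 15.7 CPM (log2 fold change -0.60, SE 0.27, adjusted p = 0.0921). Ckm, the creatine kinase of mature muscle, had 9 counts in all P1 libraries and was not tested.

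Macrophage transcripts fell together. Of 24 genes on the list 19 were tested and these 19 were lower, with a median log2 fold change of -3.65 and 3 of them below the filter level in every P3 library. Ptprc, the pan-leukocyte phosphatase CD45, stood at 8.08, 7.27, 7.72 and 7.43 CPM in P1 and at 0.526, 0.549, 0.322 and 0.512 CPM in P3, with log2 fold change -3.98, SE 0.33, adjusted p = 2.90e-08. Mrc1, the mannose receptor of resident macrophages, stood at 38.5, 36.8, 33.2 and 26.9 CPM and 1.25, 2.54, 1.87 and 2.93 CPM, with log2 fold change -3.98, SE 0.28, adjusted p = 4.28e-09. C1qa, a complement subunit made mainly by macrophages, changed by -3.70 ± 0.35, Adgre1, the F4/80 antigen, by -3.15 ± 0.39 and Itgam by -3.69 ± 0.24. For these genes the P1 and P3 ranges were far apart, and P1 replicate 4 had the lowest P1 value of Mrc1, C1qa, Adgre1 and Itgam. Csf1r, the receptor for the growth factor of macrophages, fell least, from 24.2, 20.7, 19.96 and 17.1 CPM to 8.48, 8.30, 9.09 and 9.51 CPM (log2 fold change -1.21, SE 0.13, adjusted p = 1.15e-06).

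Further genes outside the list that macrophages are known to express were lower too. Ccl6, a chemokine, was at 51.6, 45.7, 63.6 and 16.4 CPM in P1 and 0.986, 1.10, 1.74 and 0.293 CPM in P3 (log2 fold change -5.39, SE 0.39, adjusted p = 4.84e-09). Mmp12, the macrophage elastase, was at 113, 100.2, 121 and 74.4 CPM and 7.23, 7.27, 7.74 and 6.73 CPM (log2 fold change -3.82, SE 0.27, adjusted p = 3.91e-09). Ctss, a lysosomal protease of antigen-presenting cells, changed by -3.60 ± 0.28 and Atp6v0d2, a proton pump subunit, by -4.12 ± 0.23. Gpnmb and Lgals3, which fibroblasts can express too, stayed abundant and fell by 1.11 and 1.04 on the log2 scale. Gpnmb went from a mean of 1126 ± 51.98 CPM (SD, n = 4) at P1 to 521 ± 30.6 CPM (SD, n = 4) at P3, and Lgals3 from 791 ± 41.5 CPM (SD, n = 4) at P1 to 385 ± 33.3 CPM (SD, n = 4) at P3. Without P3 replicate 4 Lgals3 lay on the threshold, at -0.996, and was not called. How much of these falls moved with the macrophage list was not tested, and that list summed to 413 to 629 CPM at P1 and 59.6 to 79.98 CPM at P3.

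Of 14 genes of MHC class II and dendritic cells 8 were tested and 4 fell, which were Itgax (-3.88 ± 0.36), H2-Aa (-3.05 ± 0.49), H2-Eb1 (-1.53 ± 0.29) and the invariant chain Cd74 (-1.30 ± 0.24). Lymphocyte and mast cell genes were nearly absent at both passages. Only Cd4 and Kit of 17 passed the filter, at 1.58, 1.36, 2.19 and 1.98 CPM and 2.19, 1.83, 2.32 and 2.78 CPM in P1, both lower at P3, and the T cell gene Cd3e had no count in P1.

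Most endothelial genes fell. All 20 members were tested, 17 were lower, 1 was higher and the median log2 fold change was -2.22. Of the 17, 2 were below the filter level in every P3 library, Esam, a junction adhesion molecule (-4.20 ± 0.39), and Robo4, an endothelial guidance receptor (-2.75 ± 0.53). Cdh5, the cadherin of endothelial junctions, stood at 45.5, 43.9, 46.7 and 48.02 CPM in P1 and 9.66, 7.34, 7.03 and 10.6 CPM in P3, with log2 fold change -2.41, SE 0.19, adjusted p = 1.75e-08. Pecam1 stood at 28.97, 28.8, 31.6 and 35.3 CPM and 4.60, 6.72, 4.38 and 6.73 CPM, with log2 fold change -2.48, SE 0.26, adjusted p = 6.55e-07. Both stayed above the filter level in every P3 library and had means of 2.33 (Cdh5) and 0.934 (Pecam1) CPM at P5. Prox1, the factor of lymphatic endothelium, changed by -2.92 ± 0.20 and Kdr, the main receptor for VEGF, by -1.25 ± 0.18. Flt1, the decoy receptor for VEGF, went the other way, from 64.9, 65.2, 69.6 and 80.9 CPM to 173, 158, 204 and 187 CPM (log2 fold change 1.37, SE 0.12, adjusted p = 5.07e-08), with no overlap. Vwf and Lyve1 had overlapping groups and log2 fold changes of -0.45 ± 0.24 and -0.16 ± 0.46.

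The pericyte list was split, with 3 of 11 tested members higher and 2 lower. Cnn1, the calponin of smooth muscle and myofibroblasts, was at 13.97, 16.9, 9.91 and 14.05 CPM in P1 and 66.8, 75.7, 73.2 and 100 CPM in P3, with log2 fold change 2.53, SE 0.18, adjusted p = 3.90e-09. Ndufa4l2 was higher too (2.31 ± 0.37), as was Mcam (1.08 ± 0.27), whose P3 replicate 4, at 142 CPM, stood above the other P3 libraries, at 64.6 to 68.2 CPM. Without that library the log2 fold change of Mcam was 0.72 and the call was lost. Abcc9 (-2.05 ± 0.61), a channel subunit, and the shared muscle gene Des were lower. The defining marker Rgs5 was at 2.94, 2.85, 2.32 and 2.72 CPM in P1 and 1.64, 1.51, 1.16 and 2.71 CPM in P3, with log2 fold change -0.64, SE 0.29, adjusted p = 0.101.

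Schwann cell and nerve genes went up in part. Of 15 tested members 4 were higher, none lower, and the median log2 fold change was 0.51. S100b, a calcium-binding protein of glia, stood at 1.85, 1.29, 1.57 and 2.04 CPM in P1 and 2.96, 4.46, 4.19 and 5.63 CPM in P3 (log2 fold change 1.34, SE 0.27, adjusted p = 0.000902). L1cam and Gap43, genes of axon growth and of immature Schwann cells, rose by 1.24 ± 0.26 and 1.13 ± 0.16. For these 3 genes no P3 library fell into the P1 range. Sox10, the lineage factor of Schwann cells and melanocytes, was at 18.2, 17.6, 17.5 and 21.3 CPM and 32.3, 29.8, 30.9 and 37.6 CPM without overlap and did not reach the fold threshold (log2 fold change 0.81, SE 0.30, adjusted p = 0.0446). Among genes named for the size of their change, Ptprz1, a receptor phosphatase of glia, went from 2.60, 4.62, 2.26 and 4.02 CPM to 18.4, 21.3, 16.96 and 32.2 CPM (log2 fold change 2.71, SE 0.28, adjusted p = 4.97e-07).

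Melanocyte and fat cell genes moved in part, with 2 of 7 tested melanocyte genes lower, Dct and Kit. Dct, an enzyme of melanin synthesis, had 60 counts at P1 and 1 at P3, a ratio of 58.9 (exact interval 10.2 to 2360), while Pmel and Mlana, at 1.61 CPM or less in every library, had overlapping groups. Of 13 tested genes of fat cells and fat storage 5 were lower. Cd36, a fatty acid transporter also found on macrophages and endothelium, fell from 65.1, 71.2, 63.9 and 47.2 CPM to 2.10, 4.60, 3.93 and 4.46 CPM (log2 fold change -4.04, SE 0.22, adjusted p = 1.64e-10). Fabp4, a fatty acid carrier, fell by 3.10 on the log2 scale and Plin4, a coat protein of fat droplets, by 2.47. Adipoq, the hormone of mature fat cells, had 3 counts in all P1 libraries, and the fat cell regulator Pparg overlapped between groups (log2 fold change -0.26, SE 0.15, adjusted p = 0.183).

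**Figure D3:**
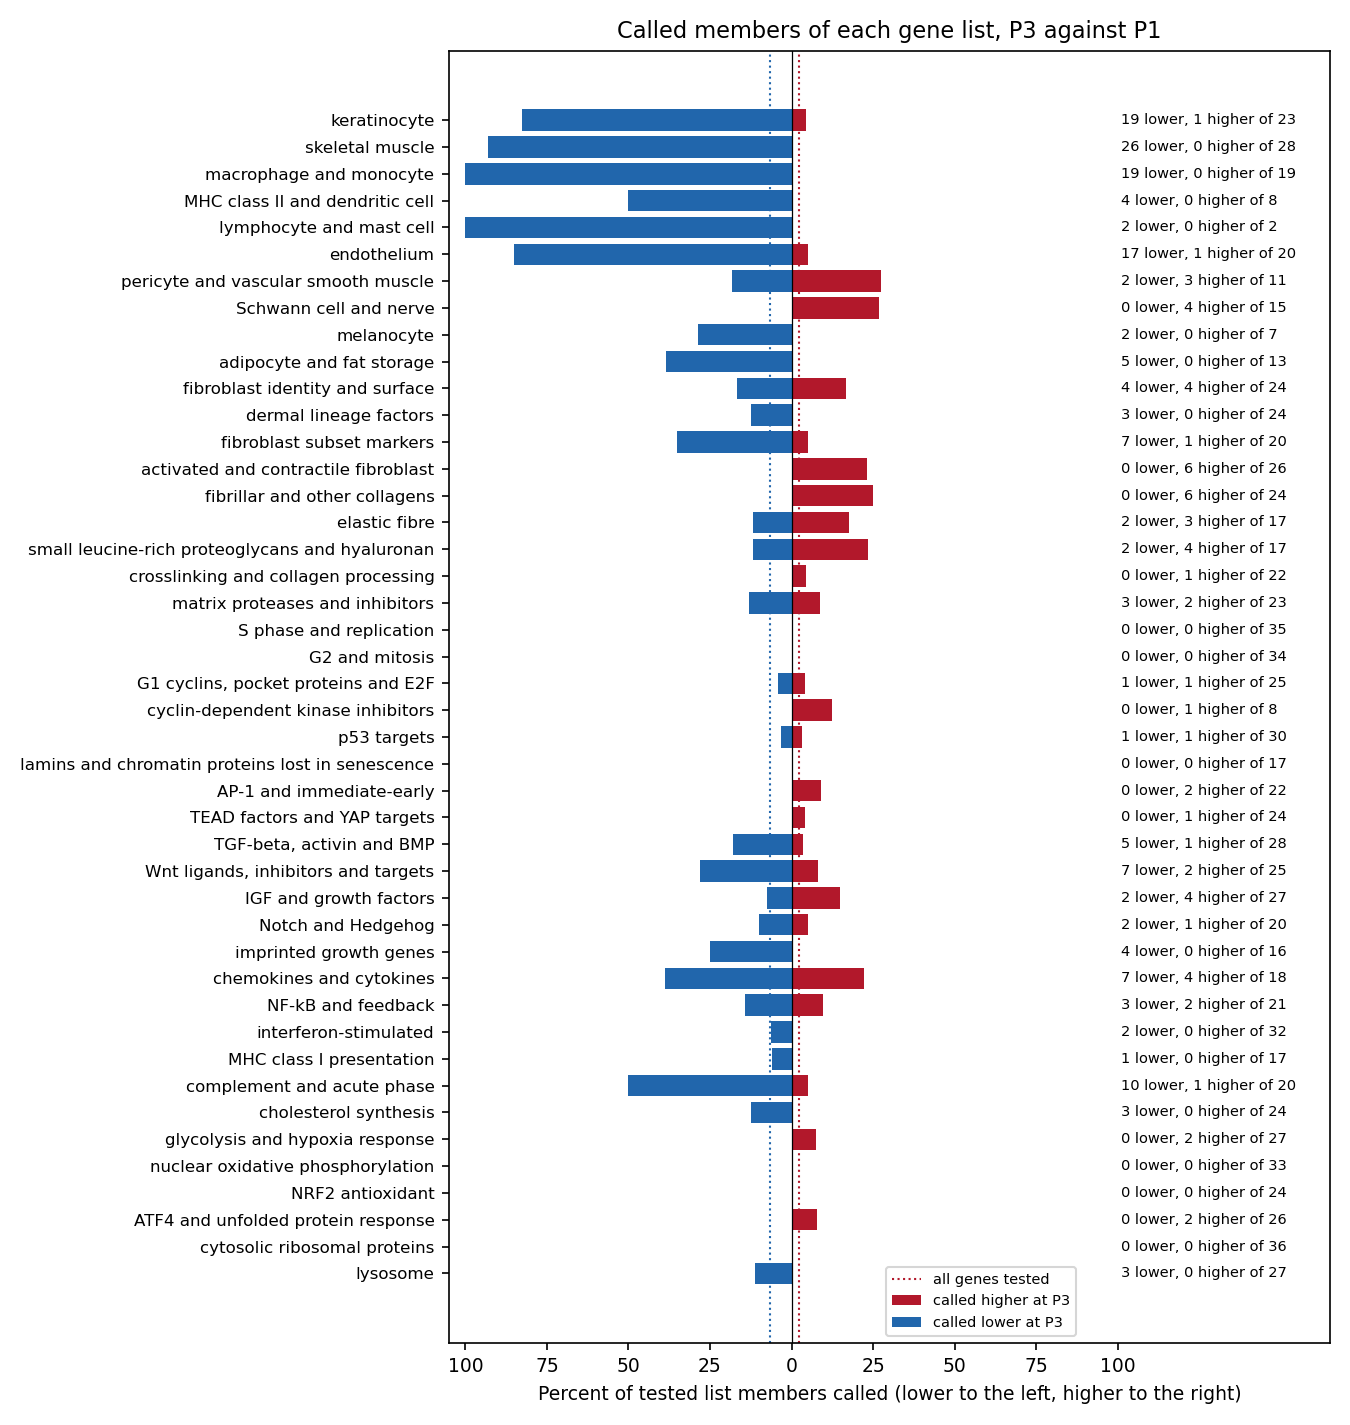
Share of tested members of each gene list called at P3 against P1. Bars to the left are members called lower and bars to the right members called higher, in percent of tested members, with counts at the right edge and dotted lines at the shares over all genes tested (6.58% lower and 2.4% higher). The lists of macrophage (19 of 19), lymphocyte and mast cell (2 of 2), skeletal muscle, endothelial and keratinocyte genes reach furthest to the left, and those of pericytes, Schwann cells, collagens, proteoglycans and contractile genes reach furthest to the right.

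Genes of the extracellular matrix and some genes of the contractile cytoskeleton were among those that rose. Of 24 tested collagens 6 were higher and none lower (median log2 fold change 0.50), and of 26 genes of activated and contractile fibroblasts 6 were higher and none lower (median log2 fold change 0.67), against 2.4% of all genes. By adjusted p alone 12 collagens were higher and 2 lower, against 16% and 17.5% of all genes. The 2 lower ones were Col7a1 (-0.70 ± 0.18), without overlap, and Col24a1 (-0.69 ± 0.26), with overlap. Fn1, fibronectin, on which cells and collagen fibrils assemble (chromosome 1, 71585473 to 71653280), was at 3486, 3693, 3547 and 3796 CPM in P1 replicates 1 to 4 and at 11264, 9924, 10017 and 11725 CPM in P3. Every P3 library was more than 2-fold above every P1 library, with log2 fold change 1.56, SE 0.15, adjusted p = 1.71e-07. Col3a1, the fibrillar collagen of young and healing dermis, was at 1966, 1731, 2227 and 1320.5 CPM in P1 and 4417, 4906, 3965 and 3741 CPM in P3 (log2 fold change 1.23, SE 0.14, adjusted p = 1.05e-06). Postn, periostin, a matricellular protein of wound fibroblasts, was at 1081, 1143, 1213 and 833 CPM and 3479, 4561, 3592 and 2593 CPM (log2 fold change 1.74, SE 0.22, adjusted p = 6.88e-06). For both genes the lowest P3 library was above the highest P1 library, and replicate 4 was the lowest of each passage.

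**Figure D4:**
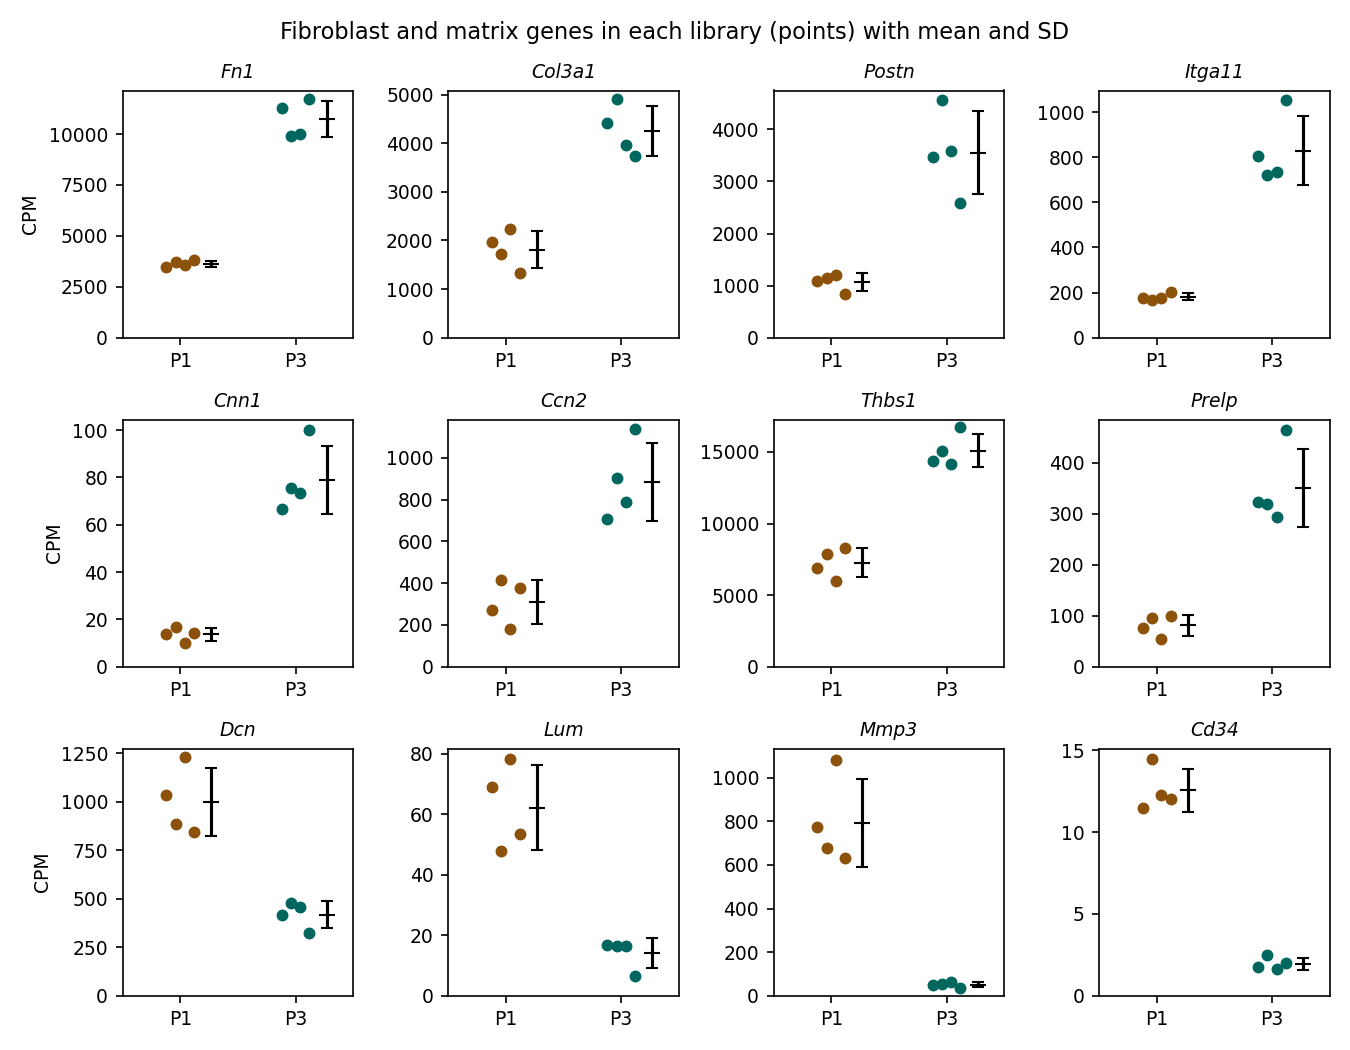
Levels of fibroblast and matrix genes by library. Each panel gives the CPM of 1 gene in the 4 P1 (brown) and 4 P3 (green) libraries on an axis from 0, with the mean and SD beside the points. Fn1, Col3a1, Postn, Itga11, Cnn1, Ccn2, Thbs1 and Prelp are higher and Dcn, Lum, Mmp3 and Cd34 lower in every P3 library than in any P1 library.

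Among the other collagens, Col11a1 and Col5a1, which set the width of collagen fibrils, rose by 1.504 ± 0.16 and 1.05 ± 0.11 on the log2 scale, and Col4a5, a chain of basement membranes, by 1.65 ± 0.14. Col8a2 and Col10a1 were called higher at levels of 2.56 CPM or less with overlapping groups. The call of Col10a1 was lost when any library other than P1 replicate 4 or P3 replicate 3 was left out (1.33 to 1.60). The main dermal collagen genes moved less. Col1a1 was at 9324, 8585, 9139 and 8941 CPM in P1 and 14979, 11488, 12288 and 12158 CPM in P3 and Col1a2 changed by 0.73 ± 0.09, below the fold threshold but with adjusted p of 0.00195 and 8.26e-06. The 3 chains of collagen VI did not pass the test, with log2 fold changes of -0.01 ± 0.13 for Col6a1, -0.06 ± 0.13 for Col6a2 and -0.32 ± 0.15 for Col6a3. Lox, which oxidises collagen for crosslinking, fell just short of the threshold (log2 fold change 0.99, SE 0.12, adjusted p = 3.54e-06) and passed it when P1 replicate 2 or 4 or P3 replicate 1 or 3 was left out. Its relative Loxl2 was called, from 235, 236, 287 and 249.9 CPM to 632, 708, 673 and 815 CPM (log2 fold change 1.49, SE 0.10, adjusted p = 3.90e-09). No other member of the crosslinking list was called among 22.

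Small leucine-rich proteoglycans, which coat collagen fibrils, parted ways. With the genes of hyaluronan 17 were tested, 4 higher and 2 lower (median log2 fold change 0.42). Prelp rose from 76.4, 94.9, 53.4 and 98.5 CPM to 323, 319.8, 294 and 464 CPM (log2 fold change 2.12, SE 0.20, adjusted p = 1.41e-07) and Fmod, fibromodulin, from 24.5, 29.6, 19.2 and 32.3 CPM to 88.1, 82.4, 71.2 and 65.3 CPM (log2 fold change 1.54, SE 0.16, adjusted p = 4.29e-07). Podn and the hyaluronan-degrading Cemip rose by 1.10 ± 0.14 and 1.53 ± 0.22. In the opposite direction Dcn, decorin, fell from 1036, 885, 1229 and 846 CPM to 417, 479.5, 455 and 322 CPM (log2 fold change -1.26, SE 0.19, adjusted p = 4.39e-05), and Lum, lumican, from 69.2, 47.8, 78.2 and 53.6 CPM to 16.6, 16.3, 16.4 and 6.51 CPM (log2 fold change -2.15, SE 0.26, adjusted p = 3.17e-06). None of these genes overlapped between the passages. Bgn, biglycan, changed by 0.74 ± 0.08, below the threshold.

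The elastic fibre list was mixed, with 3 members higher and 2 lower of 17 (median log2 fold change 0.19). Eln, elastin itself, fell from 28.9, 24.3, 34.6 and 22.1 CPM to 12.4, 10.2, 6.58 and 13.7 CPM (log2 fold change -1.36, SE 0.39, adjusted p = 0.0106) and Ltbp2 by 1.33 on the log2 scale, while the microfibril genes Fbn2, Mfap4 and Ltbp4 rose by 1.07 ± 0.16, 1.07 ± 0.27 and 1.27 ± 0.22. Mfap4 overlapped between groups. Its call was lost without P1 replicate 4 (0.995) or P3 replicate 1 (0.83), and that of Fbn2 without P1 replicate 3 (0.96). Of 23 proteases and inhibitors 3 were lower and 2 higher (median log2 fold change 0.08). Mmp3, stromelysin, had the largest fall among them, from 774, 679.7, 1083 and 633 CPM to 47.4, 52.5, 63.8 and 36.4 CPM (log2 fold change -3.98, SE 0.22, adjusted p = 2.33e-10). Mmp19 and Mmp10 fell by 1.70 and 1.13 on the log2 scale. Mmp10 was not called without P1 replicate 3 (-0.99) or P3 replicate 4 (-0.98). Adamts5, which cleaves proteoglycans, and Timp3, an inhibitor of these enzymes held in the matrix, rose by 1.44 ± 0.11 and 1.64 ± 0.15. The abundant collagenolytic genes Mmp2 and Mmp14 overlapped between groups, with log2 fold changes of -0.24 ± 0.12 and 0.03 ± 0.09.

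Besides Postn and Cnn1, 4 contractile and activation genes rose. Itga11, the collagen receptor subunit of myofibroblasts (chromosome 9, 62677855 to 62783979), rose from 174, 168, 177 and 205 CPM to 807, 721, 736 and 1052 CPM (log2 fold change 2.19, SE 0.17, adjusted p = 1.00e-08). Ccn2, connective tissue growth factor, rose from 269, 414, 179 and 377 CPM to 707, 903, 788 and 1136 CPM (log2 fold change 1.51, SE 0.20, adjusted p = 1.26e-05). Tagln, the actin-binding transgelin, rose from 637, 767, 533 and 810.5 CPM to 1301, 1176, 1267 and 1855 CPM (log2 fold change 1.03, SE 0.15, adjusted p = 3.09e-05) and Thbs1, thrombospondin, by 1.06 ± 0.11. In none of these did the passages overlap. The call of Tagln was lost without P1 replicate 1 (0.99), P1 replicate 3 (0.92) or P3 replicate 4 (0.87), and that of Thbs1 without P1 replicate 3 (0.98). Acta2, the smooth muscle actin, was at 1709.5, 2154, 1509 and 2364 CPM and 2820.1, 2916, 3164 and 4471 CPM, also without overlap, and stayed under the fold threshold (log2 fold change 0.79, SE 0.16, adjusted p = 0.000814). Actg2 overlapped, with P3 replicate 4 at 453 CPM and the other P3 libraries at 178 to 210 CPM. Myl9, Tpm1, Tpm2, Cnn2 and Flna overlapped too and were not called. Their log2 fold changes were 0.39 ± 0.18, 0.36 ± 0.12, 0.30 ± 0.14, 0.27 ± 0.12 and 0.21 ± 0.13. Myocd, the coactivator of the smooth muscle programme, and its partner Srf had log2 fold changes of 0.22 ± 0.37 and -0.19 ± 0.14.

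Genes by which fibroblasts are recognised were mostly under the fold threshold, with 4 of 24 higher (Fn1, Col3a1, Mfap4 and Cd248) and 4 lower (Dcn, Lum, Cd34 and Dpp4) and a median log2 fold change of 0.24. Thy1 changed by 0.74 ± 0.08, Vim by 0.28 ± 0.10, Pdgfrb by -0.18 ± 0.09 and Prrx1 by 0.07 ± 0.10, none of them called. Pdgfra was lower in every P3 library, at 636, 579, 756 and 469.8 CPM in P1 and 370.4, 372, 399 and 306 CPM in P3, and was not called (log2 fold change -0.75, SE 0.15, adjusted p = 0.000654). Other surface and subset markers went both ways. Pdpn, S100a4 and Gpx3 were lower in every P3 library than in any P1 library and were not called. Their log2 fold changes were -0.72 ± 0.11, -0.69 ± 0.12 and -0.96 ± 0.15. Ly6a was higher in every P3 library than in any P1 library and was not called (0.50 ± 0.15). Cd55, Sema3c and Mfap5 overlapped between groups, with log2 fold changes of 0.21 ± 0.24, -0.07 ± 0.16 and 0.19 ± 0.17. Cd34 and Dpp4, surface markers of progenitor-like fibroblasts of the deep dermis and fascia, were called lower. Cd34 went from 11.5, 14.5, 12.3 and 12 CPM to 1.77, 2.47, 1.61 and 1.97 CPM (log2 fold change -2.68, SE 0.23, adjusted p = 3.68e-08) and Dpp4 from 2.74, 3.13, 1.98 and 4.95 CPM to 0.657, 0.343, 0.516 and 0.585 CPM (log2 fold change -2.59, SE 0.37, adjusted p = 2.33e-05). Cd34 is also expressed by endothelium, whose list fell too. Of 20 tested markers of fibroblast subsets 7 were lower and only Ly6c1 was higher (1.11 ± 0.12), with a list median of -0.04. Among the lower ones, Sparcl1 changed by -2.30 ± 0.21, Penk by -2.24 ± 0.47 and the lipid carrier Apoe, which macrophages express as well, by -1.97 ± 0.19. Among dermal lineage factors calls were few, with none of 24 higher and 3 lower, namely Crabp1 (-1.11 ± 0.19), Meox2 (-1.02 ± 0.23) and Dlk1 (-1.31 ± 0.30). Crabp1 was not called without P3 replicate 2 (-0.98), and Meox2 not without P1 replicate 3, P3 replicate 3 or P3 replicate 4 (-0.93 to -0.97).

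Growth genes changed little by the fold criterion. None of 35 genes of S phase and replication was called, but 28 were lower by adjusted p alone, against 17.5% of all genes, with a list median of -0.58 against 0.005 over all genes. Fen1, the flap nuclease of lagging-strand synthesis, went from 72.4, 58.9, 65.1 and 56.9 CPM to 40.4, 28.1, 36.1 and 30.9 CPM (log2 fold change -0.90, SE 0.14, adjusted p = 5.92e-05), and Mcm6, a subunit of the replicative helicase, from 151, 145, 136 and 138 CPM to 112, 112, 119 and 107 CPM (log2 fold change -0.34, SE 0.12, adjusted p = 0.0421). For both, the passages did not overlap. Of 34 genes of G2 and mitosis none was called and 3 were lower by adjusted p alone, with a median of -0.05. Mki67, the proliferation antigen, was at 329, 312, 334 and 319 CPM in P1 and 239, 241, 330.2 and 318 CPM in P3, with overlapping groups (log2 fold change -0.20, SE 0.18, adjusted p = 0.418). At P5 and P7 its means were 84.0 and 20.8 CPM.

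The cyclin-dependent kinase inhibitors did not move together. Of 8 members 1 was called higher and none lower, against 2.4% and 6.58% of all genes, and the median log2 fold change was 0.02. By adjusted p alone 3 were higher and 1 lower, against 16% and 17.5% of all genes. Cdkn2a, which encodes p16 and p19ARF (chromosome 4, 89274473 to 89294619), was at 7.12, 8.22, 7.25 and 9.65 CPM in P1 and 20.5, 23.7, 16.3 and 25.1 CPM in P3, without overlap (log2 fold change 1.40, SE 0.25, adjusted p = 0.000245). Its means at P5 and P7 were 101.2 and 224 CPM. Cdkn1a, p21, was at 233, 249.8, 207 and 250.5 CPM and 349.9, 329, 301 and 389 CPM and Cdkn2b, p15, at 11.3, 14.1, 14.2 and 19.1 CPM and 21.3, 26.5, 21.5 and 29.2 CPM. Neither overlapped between passages and neither reached 2-fold, with log2 fold changes of 0.54 ± 0.11 and 0.74 ± 0.17 and adjusted p of 0.000616 and 0.00283. On the other side Cdkn2d, p19INK4d, had a log2 fold change of -0.64 ± 0.16 (adjusted p = 0.00459) and Cdkn2c, p18, of -0.41 ± 0.16 (adjusted p = 0.057), both without overlap, while Cdkn1c, p57, overlapped at -0.78 ± 0.36 (adjusted p = 0.102). Of 30 p53 target genes 18 were higher by adjusted p alone, against 16% of all genes (median log2 fold change 0.42), but only the kinase Plk2 was called higher, from 73.9, 83.6, 65.1 and 87 CPM to 191, 203, 198 and 219.7 CPM (log2 fold change 1.39, SE 0.10, adjusted p = 3.91e-09). Perp, a p53 target that is also a desmosome gene of epidermis, was the member called lower (-2.71 ± 0.41). Trp53 itself was at 138, 139, 139 and 135 CPM and 129, 129, 134 and 128 CPM (log2 fold change -0.08, SE 0.07, adjusted p = 0.411). Ccnd2, a D-type cyclin, rose from 251, 282, 255 and 320.3 CPM to 789, 802, 725 and 998 CPM (log2 fold change 1.58, SE 0.14, adjusted p = 6.67e-08), while Ccnd1 overlapped (0.44 ± 0.22). Of 25 genes of G1 cyclins, pocket proteins and E2F, Ccnd2 was called higher and E2f2 lower (-1.11 ± 0.32, without overlap). The shares over all genes were 2.4% and 6.58%. By adjusted p alone 4 were higher and 8 lower, against 16% and 17.5% of all genes (median log2 fold change -0.085). Lmnb1, the lamin that is lost in senescence, was at 92.7, 89.5, 93.7 and 92.3 CPM and 81.3, 70.03, 87.3 and 77.6 CPM (log2 fold change -0.22, SE 0.12, adjusted p = 0.172), without overlap. None of the 17 lamin and chromatin genes of its list was called, but 7 were lower by adjusted p alone and none higher, against 17.5% of all genes lower (median log2 fold change -0.15). Among the 7, Lmnb2, Hmgb2 and the maintenance methyltransferase Dnmt1 had log2 fold changes of -0.70 ± 0.11, -0.69 ± 0.15 and -0.50 ± 0.10.

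E2f4, Tead1 and Atf3, transcription factors that the study named as regulators, were not called between P1 and P3. Over the same passages the paper reports a rise of Tead1 from early on, a gradual fall of E2f4 and a late rise of Atf3. E2f4 had a log2 fold change of -0.09 ± 0.09, Atf3 of 0.32 ± 0.24 and Tead1 of 0.44 ± 0.12, with adjusted p of 0.477, 0.321 and 0.0103. Tead1, at 307 to 381 CPM in P1 and 417 to 545 CPM in P3, did not overlap between passages. Nor did Atf3, at 7.425 to 8.082 CPM and 9.595 to 9.877 CPM, whereas E2f4 overlapped. Among 22 AP-1 and immediate-early genes 2 were higher (median log2 fold change 0.01). Egr1 went from 28.8, 35.3, 31.5 and 26.6 CPM to 80.4, 68.8, 84.3 and 84.9 CPM (log2 fold change 1.38, SE 0.21, adjusted p = 4.80e-05) and the orphan receptor Nr4a1 from 11.9, 13.8, 12.9 and 12.4 CPM to 41.9, 36.8, 39.7 and 34.01 CPM (log2 fold change 1.58, SE 0.21, adjusted p = 8.77e-06). Ccn2 was the one call among 24 TEAD factors and YAP targets, and 11 of these were higher and 1 lower by adjusted p alone, against 16% and 17.5% of all genes (median log2 fold change 0.23).

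Calls among Wnt and BMP genes were more often lower than higher, while the summed levels of both lists were higher in every P3 library. The Wnt list summed to 1321 to 1592 CPM at P1 and 1982 to 2382 CPM at P3. The list of TGF-beta, activin and BMP summed to 3968 to 4227 CPM and 4795 to 5232 CPM. Of 25 tested Wnt genes 7 were lower and 2 higher, against 6.58% and 2.4% of all genes (median log2 fold change -0.26). Axin2, the general target of Wnt signalling, fell from 9.86, 9.17, 11.6 and 12.3 CPM to 1.64, 1.10, 1.74 and 1.68 CPM (log2 fold change -2.79, SE 0.26, adjusted p = 1.63e-07). Notum, a secreted inhibitor of Wnt, had 284 counts at P1 and 5 at P3, a ratio of 55.7 (exact interval 23.6 to 173), and Sfrp2, Rspo1, Wif1, Wnt16 and Wnt10a changed by -2.38 ± 0.30, -2.34 ± 0.37, -2.28 ± 0.43, -2.14 ± 0.35 and -3.27 ± 0.52. Dkk2, an inhibitor, and Lgr5, the receptor for R-spondins, were higher, by 1.39 ± 0.14 and 1.38 ± 0.23. In the BMP and TGF-beta list 5 of 28 tested genes were lower and 1 higher (median log2 fold change -0.05). By adjusted p alone 9 were lower and 8 higher, against 17.5% and 16% of all genes. Bmp7, with 110 counts at P1 and 1 at P3, had a ratio of 108 (19 to 4300). Gdf10, Bmp2, Bmp3 and the BMP target Id2 were lower too, with log2 fold changes of -3.94 ± 0.43, -1.99 ± 0.49, -1.77 ± 0.51 and -1.31 ± 0.22, and Inhba, the activin subunit, was higher, from 277, 323, 315 and 347 CPM to 533, 619, 599.8 and 835 CPM (log2 fold change 1.03, SE 0.15, adjusted p = 2.57e-05). Inhba lost its call without P1 replicate 1 (0.98) or P3 replicate 4 (0.89).

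The fetal growth gene Igf2 fell from 32.1, 36.4, 25.4 and 46.9 CPM in P1 to 6.64, 3.98, 3.68 and 6.73 CPM in P3 (log2 fold change -2.75, SE 0.21, adjusted p = 1.35e-08). H19, the imprinted RNA encoded beside it, fell from 56.2, 52.8, 36.3 and 65.5 CPM to 7.36, 9.12, 7.22 and 9.22 CPM (log2 fold change -2.68, SE 0.20, adjusted p = 7.56e-09). In both genes P1 replicate 4 was the highest and replicate 3 the lowest P1 library, which were also the libraries with the highest and lowest skeletal muscle sum (567 and 358 CPM). The part of muscle cells in these 2 falls was not tested. Plagl1 and Dlk1, further imprinted genes, were lower (-1.13 ± 0.18 and -1.31 ± 0.30), and 12 of the 16 tested genes of that list were not called. Igfbp3 was lower (-1.58 ± 0.21), and of the growth factors Ptn, Hbegf and Fgf5 were higher, by 1.51 ± 0.33, 1.30 ± 0.19 and 1.26 ± 0.19. Hhip, the Hedgehog-binding inhibitor, and the Notch ligand Jag2 were lower (-3.19 ± 0.34 and -2.92 ± 0.43), and Jag1 was higher (1.11 ± 0.31). Without P3 replicate 4 the change of Jag1 was 0.94 and not called.

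Complement and acute phase genes fell in large part, with 10 of 20 tested members lower and 1 higher, against 6.58% and 2.4% of all genes (median log2 fold change -0.98). Saa3, an acute phase serum amyloid made locally by fibroblasts and macrophages (chromosome 7, 46711998 to 46719615), was at 614, 413, 731 and 249 CPM in P1 and 2.23, 2.47, 2.58 and 1.02 CPM in P3, with log2 fold change -7.90, SE 0.38, adjusted p = 5.19e-11. Its relative Saa1 had 99 counts at P1 and 0 at P3, at least 32.4-fold lower. Cfb, the protease of the alternative complement pathway, fell from 54.4, 37.9, 66.1 and 25.4 CPM to 5.26, 3.43, 2.39 and 3.58 CPM (log2 fold change -3.64, SE 0.27, adjusted p = 7.56e-09). C3, C4b and Clu fell by 2.69, 2.52 and 4.08 on the log2 scale, C4b with reads that the near-identical C4a may share. In P1 the highest library for Saa3, Saa1, Cfb, C3, C4b, Clu, Hp and Lcn2 was replicate 3 and the lowest replicate 4, and the keratinocyte sums of those libraries were the highest and the lowest too, at 773 and 219.7 CPM. The macrophage sums of these 2 libraries were 594 and 413 CPM. The part of keratinocytes or macrophages in these falls was not tested. Without P1 replicate 3, the highest library, the log2 fold change of Saa3 was -7.66 and that of Clu -3.44.

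Of 18 tested chemokines and cytokines 7 were lower and 4 higher, against 6.58% and 2.4% of all genes (median log2 fold change -0.55). Ccl11, eotaxin, fell from 128, 123, 168 and 106 CPM to 13.9, 16.5, 12.8 and 14.1 CPM (log2 fold change -3.20, SE 0.22, adjusted p = 3.87e-09) and Cxcl12, the stromal chemokine, from 575, 517, 536 and 343 CPM to 219.8, 185, 191 and 94.6 CPM (log2 fold change -1.51, SE 0.21, adjusted p = 1.65e-05). Ccl8 and Ccl2 fell by 2.00 and 1.12. In the other direction Cxcl14, Cx3cl1, Il6 and Il11 were higher by 1.21 ± 0.26, 1.25 ± 0.14, 1.22 ± 0.37 and 1.05 ± 0.28, Il6 with overlapping groups at 1.24 to 8.51 CPM. The call of Il6 was lost without P1 replicate 4 (0.98) or P3 replicate 2 (0.999), and that of Il11 without P1 replicate 1, P3 replicate 2 or P3 replicate 3 (0.81 to 0.97). Ptgs2, the inducible cyclooxygenase, rose from 16.1, 21.1, 26.9 and 14.9 CPM to 60.99, 81.5, 77.2 and 89.3 CPM (log2 fold change 1.97, SE 0.21, adjusted p = 5.51e-07). Of 32 interferon-stimulated genes 2 were lower and none higher, a share near that of all genes. By adjusted p alone 8 were lower and 2 higher, against 17.5% and 16% of all genes (median log2 fold change -0.38). Of 17 genes of MHC class I presentation the immunoproteasome subunit Psmb8 was called (-1.08 ± 0.19), and 9 were lower and 1 higher by adjusted p alone, against 17.5% and 16% of all genes (median log2 fold change -0.47). Psmb8 was not called without P1 replicate 3 (-0.96) or P3 replicate 4 (-0.97).

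No metabolic list had more than 3 members called, and the shares over all genes were 6.58% lower and 2.4% higher. Cholesterol synthesis had 3 of 24 members lower by the fold criterion, Tm7sf2 (-1.37 ± 0.23), Mvd (-1.13 ± 0.20) and Pmvk (-1.01 ± 0.22), and 21 lower by adjusted p alone, against 17.5% of all genes, with a list median of -0.60. Without P3 replicate 4 Mvd and Pmvk lay at -0.97 and -0.84 and were not called, and Pmvk also not without P1 replicate 2, P3 replicate 2 or P3 replicate 3. Of 26 genes of ATF4 and the unfolded protein response Cth and Trib3 were higher, by 1.63 ± 0.17 and 1.16 ± 0.14, and of 27 genes of glycolysis and hypoxia Pdk1 and Ero1l, by 1.12 ± 0.19 and 1.06 ± 0.09. No gene was called among 33 of oxidative phosphorylation, 24 of the NRF2 response and 36 cytosolic ribosomal proteins. Of 27 lysosome genes Ctss, Atp6v0d2 and Gpnmb were lower, which are described with the macrophage genes. By adjusted p alone 13 of the ATF4 genes were higher and 2 lower, and 14 of the lysosome genes were lower and 2 higher. The shares over all genes were 16% higher and 17.5% lower.

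Of the 12 genes with the largest rises among called genes that averaged at least 3 in log2 CPM and did not overlap between passages, Itga11, Cnn1 and Ndufa4l2 belonged to a list. Among the others Rgs8, a regulator of G protein signalling, was at 1.16, 0.680, 1.03 and 0.371 CPM in P1 and 8.41, 6.58, 10.9 and 7.31 CPM in P3 (log2 fold change 3.36, SE 0.32, adjusted p = 1.78e-07). C1qtnf3, a secreted protein of the C1q and TNF family, was at 13.1, 12.6, 11.4 and 17.8 CPM and 103, 121, 84.5 and 82.7 CPM (log2 fold change 2.83, SE 0.16, adjusted p = 2.12e-10). Galnt18, an enzyme that starts O-linked sugar chains, was at 7.53, 11.01, 7.04 and 14.9 CPM and 57.7, 60.6, 46.8 and 129 CPM (log2 fold change 2.85, SE 0.31, adjusted p = 1.07e-06), with replicate 4 highest at both passages. P2rx3, an ATP-gated channel known from sensory neurons, B3galt2, Slitrk6, Ano3 and Moxd1 rose by 2.67 ± 0.31, 2.65 ± 0.34, 2.46 ± 0.37, 2.31 ± 0.28 and 2.27 ± 0.27. None of these overlapped between passages. Slco4a1, an organic anion transporter, was among the 12 largest falls under the same limits, from 74.7, 57.7, 126 and 77.5 CPM to 6.51, 3.70, 8.96 and 4.10 CPM (log2 fold change -3.84, SE 0.28, adjusted p = 4.78e-09). Among abundant transcripts the nuclear RNA Malat1 was lower, at 1788, 1663, 2072 and 1889 CPM in P1 and 637, 634, 966 and 1003 CPM in P3 (log2 fold change -1.19, SE 0.26, adjusted p = 0.00146), and Ccdc80, a matrix-associated protein, was higher (1.14 ± 0.10).

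ATAC-seq peaks were then set beside the called genes, as a description without a test. A gene was given a promoter peak in a sample when a peak overlapped the 1000 bases on either side of any of its RefSeq start sites. Of 13425 tested genes with a start site, 95.9% to 96.1% had such a peak in the 4 P1 samples and 95.1% to 95.5% in the 3 P3 samples. For genes called higher the shares were 90.3% to 92.2% and 87.9% to 91.9%, and for genes called lower it was 77.1% to 78.1% in P1 and 71.5% to 74.2% in P3. Promoters of the genes called lower had no peak in any sample in 136 of 884 cases (15.4%), against 2.71% of all genes tested and 3.74% of genes called higher. Krt14, Krt5, Ccl6, Mrc1, Ptprc, C1qa, Myog, Ttn and Pecam1 were among those without a peak in any P1 or P3 sample. Mmp3 and Mmp12 by contrast had a peak in all 7 samples. The strongest promoter peak of Mmp12 had a fold enrichment, as given by the peak caller, of 9.08, 10.1, 10.6 and 11.8 in P1 and of 4.15, 5.56 and 5.19 in P3, and that of Mmp3 of 10.7, 12.4, 10.3 and 11.6 in P1 and of 7.78, 6.75 and 7.92 in P3. The values of Mmp12 and Mmp3 did not overlap between the passages, nor did those of Slco4a1, at 14.0 to 16.5 in P1 and 11.2 to 12.9 in P3. Saa3 had 4.26 to 5.81 in P1, 2.98 and 3.4 in P3 replicates 2 and 3, and no peak in P3 replicate 1. Cd36 had a peak in 2 P1 samples and Dct in 3, and neither had a peak in any P3 sample. Myh3 and Dsp, also called lower, kept their peak strength. Myh3 had 13.8 to 15.9 in P1 and 14.8 to 18.6 in P3, and Dsp 3.77 to 5.97 and 3.8 to 4.92, both with overlap. For Fn1, Postn, Itga11 and Cdkn2a a promoter peak was present in every sample of both passages.

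**Figure D5:**
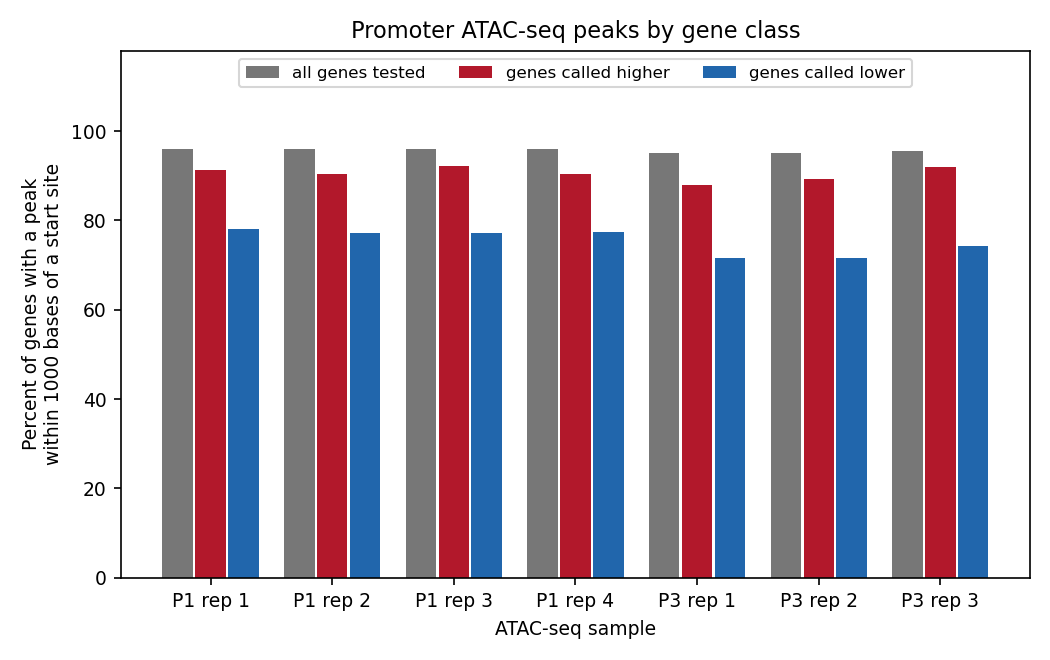
Promoter peaks in each ATAC-seq sample. The bars give the percent of genes with a peak within 1000 bases of a start site, for all genes tested (grey), genes called higher (red) and genes called lower (blue) at P3, in 4 P1 and 3 P3 samples. Genes called lower have the smallest share in every sample, 77.1% to 78.1% at P1 and 71.5% to 74.2% at P3.

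Few promoters changed from a peak in every sample of 1 passage to none in the other. A peak was lost from P1 to P3 at 12 of 884 genes called lower (1.36%), at 1 of 321 genes called higher (0.312%) and at 20 of all genes tested (0.149%), and it was gained at 1, 1 and 3 genes. These counts depend on the samples, since without P3 replicate 3 the losses at called genes went from 13 to 24 and those at tested genes from 20 to 44, and without P3 replicate 1 or 2 the latter were 35 and 32. The losses included Slamf7 and Cd180, receptors of immune cells, Rapgef5, Ccl11 and Igf2. The gain at a higher gene was at Rian, an imprinted RNA of the Dlk1 region, which rose from 40.7, 57.5, 42.1 and 54.6 CPM to 101.5, 134, 93.1 and 128 CPM (log2 fold change 1.23, SE 0.13, adjusted p = 7.40e-07). The promoters of the 3 lower genes with the largest fold among those with a sequence in the table used, and of Rian, are shown from 250 bases before to 50 bases after the start site near which the peak was lost or gained (RefSeq, GRCm38.p6), with matches to the searched motifs in capitals. Slamf7 (chr1:171648950-171649249, minus strand) had 1 AP-1 match, Rapgef5 (chr12:117533678-117533977, plus strand) had 2 TEAD matches and 1 CCAAT box, Igf2 (chr7:142658755-142659054, minus strand) had 1 TEAD match on the opposite strand, and Rian (chr12:109603695-109603994, plus strand) had 1 TEAD and 1 STAT match.
Slamf7: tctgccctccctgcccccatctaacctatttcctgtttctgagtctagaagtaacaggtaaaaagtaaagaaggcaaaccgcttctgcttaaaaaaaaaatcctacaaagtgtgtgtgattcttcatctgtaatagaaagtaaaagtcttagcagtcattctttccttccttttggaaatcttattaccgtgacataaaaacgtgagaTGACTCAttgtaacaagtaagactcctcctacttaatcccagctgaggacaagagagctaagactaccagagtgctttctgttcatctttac
Rapgef5: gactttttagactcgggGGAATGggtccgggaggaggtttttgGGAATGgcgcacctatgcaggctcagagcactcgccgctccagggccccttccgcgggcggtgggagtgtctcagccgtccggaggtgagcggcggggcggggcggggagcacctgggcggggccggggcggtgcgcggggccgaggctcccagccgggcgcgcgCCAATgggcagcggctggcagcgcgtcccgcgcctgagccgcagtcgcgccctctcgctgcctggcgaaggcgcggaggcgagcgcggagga
Igf2: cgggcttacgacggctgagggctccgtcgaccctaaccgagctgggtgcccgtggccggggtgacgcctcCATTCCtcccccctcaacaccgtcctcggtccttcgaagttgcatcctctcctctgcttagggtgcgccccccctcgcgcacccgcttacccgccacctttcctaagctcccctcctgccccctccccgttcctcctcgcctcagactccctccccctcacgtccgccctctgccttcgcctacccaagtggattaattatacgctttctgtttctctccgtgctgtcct
Rian: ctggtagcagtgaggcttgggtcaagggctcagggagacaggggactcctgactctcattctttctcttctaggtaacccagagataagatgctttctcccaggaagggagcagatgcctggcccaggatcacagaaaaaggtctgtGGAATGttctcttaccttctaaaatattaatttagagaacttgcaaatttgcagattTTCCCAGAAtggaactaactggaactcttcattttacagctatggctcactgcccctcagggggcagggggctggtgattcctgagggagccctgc

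Slamf7 and Rapgef5 were low in RNA, with 17 and 7 counts over the P3 libraries. The promoter peak of Igf2 had a fold enrichment of 4.12, 3.52, 3.73 and 3.62 in P1 and was not called in P3. That of Rian was not called in P1 and had 4.76, 3.06 and 3.03 in P3.

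Motif matches in these windows were counted on both strands, as a description, and none of the motifs contains another. AP-1 sites (TGACTCA or TGAGTCA) were in 5.52% of 308 promoters of genes called higher and 6.0% of 816 of genes called lower, against 3.86% of 13634 promoters of genes tested and 5.2% of all 32851 promoters. TEAD sites (GGAATG) were in 14.9%, 14.7%, 12.4% and 14.7%. E2F sites (TTTGGCGC, TTTCCCGC, TTTCGCGC or TTTGCCGC) were in 1.3%, 1.96%, 3.81% and 2.26%, and CCAAT boxes in 33.8%, 34.6%, 37.5% and 37.4%. TATAAA was in 16.2% and 12.9% of the promoters of genes called higher and lower, 7.28% of those tested and 13.6% of all, and the E-box CACGTG in 7.47%, 6.74%, 9.82% and 7.15%. TTCNNNGAA, a STAT site, was in 8.12%, 6.74%, 6.73% and 8.3%, and the NF-kB site in 0.325%, 0.245%, 0.198% and 0.155%. The windows of called genes also held fewer CpG pairs, with medians of 11 for genes higher and 8 for genes lower against 20 for all genes tested, and a median GC content of 55.7% and 57.3% against 60.7%.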

How the data were processed

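RNA was measured in 4 libraries at each of 4 passages (P1, P3, P5, P7), which the labels name. The methods give Trimmomatic 0.39 for trimming, HISAT2 2.2.1 for alignment (genome mm10) and HTSeq-count 0.12.4 for counting, which the authors ran with strand ignored, so overlapping and antisense genes cannot be told apart. The deposited values are raw counts per gene. The deposited ATAC-seq peak lists, called by the authors for each sample with MACS2, hold a fold enrichment and −log10 p and q values for each peak.

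Depth was 13430229 to 15385843 counts per P1 or P3 library. Genes were kept by filterByExpr of edgeR 4.0.16 (R 4.3.3), whose level was 0.696 CPM in at least 4 libraries, and 13442 remained. Libraries were scaled by TMM, and P3 was compared with P1 in 1 quasi-likelihood fit over all 16 libraries, which share the estimate of spread. A gene was called at a Benjamini-Hochberg adjusted p under 0.05 and a change of more than 2-fold. All adjusted p-values in the text come from this edgeR test and are adjusted over the 13442 genes, and the value after ± is the SE of a log2 fold change unless an SD is named. The fits were tested on simulated data. Symbols were matched to RefSeq for coordinates and start sites (GRCm38.p6). Promoters were read with Python 3.11.15 and pandas 2.3.3.

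The comparison, the gene lists and the members were chosen with earlier results of these data known. Named were the 12 highest and 12 lowest changes among called genes that averaged 3 or more in log2 CPM and whose passages did not overlap, up to 3 members at each end of each list, the 8 called genes of each direction with the highest mean level, and single genes fixed by name, such as Cdkn2a and the defining markers of cell types. Further genes were named after their values were seen, among them Rian, Slamf7, Rapgef5 and Cd180 for their promoter peaks. The alternatives were 3 other scalings, DESeq2 1.42.0, 2 other filters, a fit of 8 libraries, a replicate block, a test against a fold of 1.5 and each library left out. Leaving out both replicates 4 was added after the data were seen. Some members of the marker lists are not reported here by name. The other samples of the series were not used here.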

Additional observations from a re-analysis of the deposited data

Results flagged for a closer look

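Dixon's test covered 478 groups of 4 libraries, 1 for each passage of 229 named genes and each list of other cell types. In 29 of them a library's distance from the nearest other was over the 95% critical value. Chance gives about 1 in 20 such groups. Of the 29, P1 replicate 3 accounted for 10 and P3 replicate 4 for 9.

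P1 replicate 3 stood above the other P1 libraries for epidermal transcripts. It held 134 CPM of Krt14, 68.3 CPM of Krt6a, 64.2 CPM of Dsp, 50.2 CPM of Col17a1, 39.1 CPM of Lamb3 and 17.2 CPM of Perp, and the keratinocyte list summed to 773 CPM. It was also highest for Clu, at 18.9 CPM, and for Cdkn2d, at 24.4 CPM, and lowest for Cd248, an antigen of stromal cells, at 115 CPM.

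P3 replicate 4 stood above the other P3 libraries for genes of contractile cells, with 453 CPM of Actg2, 142 CPM of Mcam and a pericyte list summing to 582 CPM. It was highest as well for Galnt18 (129 CPM), Itga6 (59.3 CPM), Prelp (464 CPM) and Bmp7 (0.0731 CPM, which was 1 count) and lowest for Lum (6.51 CPM) and Itgam (0.878 CPM).

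P1 replicate 4 was highest for Sparcl1, at 20 CPM, and lowest for Ctss, at 64.7 CPM. P3 replicate 2 was highest for Adamts5 (458 CPM), C3 (3.91 CPM) and Plagl1 (11.2 CPM) and lowest for Axin2 (1.1 CPM) and Dsp (0.206 CPM). P3 replicate 1 was highest for Cdkn2d, at 15.8 CPM. P3 replicate 3 was highest for Dct (0.0645 CPM, which was 1 count) and lowest for Ptprc (0.322 CPM).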

How the results depend on the processing

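Of 3433 values of 229 named genes under other settings, 3358 kept their direction and their side of the threshold. Changes of direction were in 3 genes that were not called. With single libraries left out, Col6a1 (-0.01) ran from -0.0559 to 0.035, Lyve1 (-0.16) from -0.39 to 0.08 and Mmp14 (0.03) from -0.0449 to 0.0743. A filter of 10 counts in every library left 206 genes higher and 281 lower, 57.7% of calls lower, since it removes genes near 0 at 1 passage. Over the other settings the calls were 266 to 360 higher and 729 to 1145 lower. With single libraries left out, 290 to 345 genes were higher and 852 to 982 lower, and without both replicates 4, 285 and 824.

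Same-numbered P1 and P3 libraries had deviations correlated at 0.106, 0.078, 0.124 and 0.267, each the best match of its library, a hint from the data that the labels do not state. With a replicate block 329 genes were higher and 894 lower, of which 318 and 875 were called without it, and Mcam (0.99) and Ivl (1.78) lost their calls.

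Lost promoter peaks, 13 at called and 20 at tested genes, depended on the peak threshold. With a −log10 q of at least 5 they were 25 and 47, and with a P3 ATAC-seq sample left out up to 24 at called genes and 32 to 44 (without replicate 1, 35) at tested genes. Gains at called genes, 2, went to 1 with that threshold or with the summit required inside the window. Genes below 0.696 CPM at a passage rest on few counts, and their folds are the least precise.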

Other observations

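Of the called genes, 730 lower and 265 higher ones were in no list. Those named here were chosen after their values were seen. Angpt2, an antagonist ligand of the endothelial receptor Tek, fell from 85.7 ± 6.92 CPM (SD, n = 4) at P1 to 15.5 ± 1.56 CPM (SD, n = 4) at P3, and Stab1, a scavenger receptor of macrophages and lymphatic vessels, from 45.3 ± 2.15 CPM (SD, n = 4) at P1 to 6.998 ± 1.28 CPM (SD, n = 4) at P3. F13a1, a coagulation factor subunit made by macrophages, fell from 38.5 ± 7.44 CPM (SD, n = 4) at P1 to 10.9 ± 1.25 CPM (SD, n = 4) at P3. The endothelial and macrophage lists fell in the same libraries, and their part was not tested. Hsd11b1, which regenerates active glucocorticoid, went from 60.4 ± 4.17 CPM (SD, n = 4) at P1 to 11.5 ± 1.18 CPM (SD, n = 4) at P3, Pgr, the progesterone receptor, from 55.8 ± 12.02 CPM (SD, n = 4) at P1 to 15.9 ± 4.79 CPM (SD, n = 4) at P3, Oxtr, the oxytocin receptor, from 56.7 ± 14.8 CPM (SD, n = 4) at P1 to 14.5 ± 3.45 CPM (SD, n = 4) at P3, and Cyp26b1, which degrades retinoic acid, from 174 ± 43.6 CPM (SD, n = 4) at P1 to 72.1 ± 11.1 CPM (SD, n = 4) at P3. The nuclear RNA Neat1 was lower along with Malat1, from 238 ± 20.8 CPM (SD, n = 4) at P1 to 88.1 ± 30.3 CPM (SD, n = 4) at P3.

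Pappa, a protease that frees IGF from its binding proteins, rose from 59.1 ± 6.36 CPM (SD, n = 4) at P1 to 245 ± 22.1 CPM (SD, n = 4) at P3, Tll1, a protease that processes procollagen, from 10.97 ± 0.911 CPM (SD, n = 4) at P1 to 41.99 ± 11.2 CPM (SD, n = 4) at P3, and Edil3, an integrin ligand, from 20.6 ± 3.07 CPM (SD, n = 4) at P1 to 80.8 ± 13.9 CPM (SD, n = 4) at P3. Tnfrsf11b, osteoprotegerin, rose from 33.9 ± 3.70 CPM (SD, n = 4) at P1 to 93.5 ± 20.9 CPM (SD, n = 4) at P3 and Vdr, the vitamin D receptor, from 30.7 ± 4.95 CPM (SD, n = 4) at P1 to 87.3 ± 7.82 CPM (SD, n = 4) at P3. Pdgfd, a ligand of the PDGF receptors, rose from 31.2 ± 3.58 CPM (SD, n = 4) at P1 to 80.5 ± 10.8 CPM (SD, n = 4) at P3 and Gpc4, a glypican, from 136 ± 18.5 CPM (SD, n = 4) at P1 to 331 ± 47.3 CPM (SD, n = 4) at P3. In none of the genes given here with values did the passages overlap.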
